A study of Mus musculus with 20 samples.

Results

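The subject of this report is the baseline transcriptome of Gfp control myotubes, that is, what differentiated C2C12 cultures expressed when they carried only the control adenovirus. The 10 control libraries were taken by their labels, Gfp 1 to 5 and Gfp 11, 13, 14, 15 and 16, out of 20 libraries in the series. C2C12 is a mouse myoblast line that fuses into contractile, multinucleated myotubes when serum is withdrawn. In every group the cultures received adenovirus on day 4 of differentiation and were collected 48 h later, on day 6, and in the control groups the virus carried Gfp, green fluorescent protein, driven by the CMV promoter. Gfp 1-5 (n = 5) served as the controls of 5 Per2 libraries and Gfp 11-16 (n = 5) as those of 5 Per1 libraries, where Per1 and Per2 are the clock repressors that the study overexpressed. All groups share this 1 cell line and exposure to a virus, and cultures without virus are not analysed here.

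The values were regularized log2 counts (rlog), which estimate the log2 of the depth-scaled read count of a gene and draw the libraries of 1 experiment toward their common mean. Read counts are not among them, and library depth is unknown. The 10 libraries numbered 1 to 5 and the 10 numbered 11 to 16 had been transformed separately, and the set of Gfp libraries, the experiment and the transformation therefore cannot be told apart in any difference between Gfp 1-5 and Gfp 11-16. Because a Gfp value is also drawn toward the Per libraries of its own experiment, the difference between Per and Gfp libraries is given or noted beside the genes named in the comparison of the sets where it reached 0.25 in either experiment. Levels of different genes were compared per kilobase, as the rlog minus the log2 of the length of the gene's canonical transcript in kilobases, and 1 unit is a doubling. Where an rlog is given instead, it is not corrected for length and places a gene only as high or low. Reads of near-identical copies may have been counted at more than 1 gene, since 18 of 13587 annotated pseudogenes had a mean rlog of at least 15 in both sets, among them Gm15459 at 18.27 in Gfp 1-5 and 17.98 in Gfp 11-16.

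As background, a myotube forms when the bHLH factors MyoD and myogenin drive myoblasts out of the cell cycle and into fusion. The contractile genes come in families whose members replace each other with age and fiber type: embryonic, neonatal and adult fast or slow myosin heavy chains, cardiac and skeletal actins, slow and fast troponins. Developing muscle is known for embryonic and cardiac members of these families, and for the fetal gamma subunit of the acetylcholine receptor, which gives way to the epsilon subunit as the nerve contact matures. Many muscle promoters hold an E-box bound by the bHLH factors, here searched as CAGCTG, which reads the same on both strands.

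To show what the regulatory sequence of such genes looks like, the 250 bases before the annotated start are printed for the acetylcholine receptor subunit genes Chrna1, Chrng and Chrne, whose levels are compared further on, and for Mylpf, the sarcomere gene with the highest level per kilobase. They are RefSeq sequences of build GRCm38.p6, read 5′ to 3′ on the strand of the gene, with each CAGCTG in capitals. Chrna1 lies at chr2:73580339-73580588 on the minus strand, Chrng at chr1:87205561-87205810 on the plus strand, Chrne at chr11:70619195-70619444 on the minus strand and Mylpf at chr7:127211358-127211607 on the plus strand.
Chrna1: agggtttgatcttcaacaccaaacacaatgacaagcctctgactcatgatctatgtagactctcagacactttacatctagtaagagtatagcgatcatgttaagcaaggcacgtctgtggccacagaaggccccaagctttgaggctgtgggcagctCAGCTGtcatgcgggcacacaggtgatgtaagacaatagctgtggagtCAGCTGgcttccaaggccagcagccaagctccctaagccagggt
Chrng: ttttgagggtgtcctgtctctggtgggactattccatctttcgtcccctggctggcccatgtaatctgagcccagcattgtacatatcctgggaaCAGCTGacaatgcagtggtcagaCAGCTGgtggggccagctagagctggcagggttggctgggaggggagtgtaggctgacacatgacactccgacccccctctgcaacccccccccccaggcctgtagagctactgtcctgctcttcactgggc
Chrne: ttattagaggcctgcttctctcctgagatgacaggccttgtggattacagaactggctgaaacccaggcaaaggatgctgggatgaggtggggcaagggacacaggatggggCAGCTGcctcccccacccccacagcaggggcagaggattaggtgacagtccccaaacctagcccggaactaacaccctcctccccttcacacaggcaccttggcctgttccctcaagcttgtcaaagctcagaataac
Mylpf: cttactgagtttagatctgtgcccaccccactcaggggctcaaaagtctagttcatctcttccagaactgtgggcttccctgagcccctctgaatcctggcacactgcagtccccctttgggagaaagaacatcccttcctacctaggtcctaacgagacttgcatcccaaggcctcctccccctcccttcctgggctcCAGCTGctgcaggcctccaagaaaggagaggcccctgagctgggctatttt
The 2 motifs of Chrna1 begin 92 and 44 bases before the start, those of Chrng 155 and 132 bases, the 1 motif of Chrne 138 bases and that of Mylpf 51 bases. Of the 5 receptor subunit genes of muscle, 4 matched the table, and 3 of these held the motif, while Chrnb1 did not. Of 32851 promoters of the same length, 13.0% held at least 1 CAGCTG and 1.26% held 2 or more. Of 7 muscle genes outside the receptor that were searched, Mylpf, Acta1, Myh4 and Ckm held 1 motif each, and Myh3, Tnnc1 and Myog held none in this window. A match of letters is a description and was not tested as a binding site.

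The 4 defining myotube markers were high in every control library, as the label says. Myog, the bHLH factor myogenin, Ckm, muscle creatine kinase, Acta1, skeletal alpha-actin, and Myh3, embryonic myosin heavy chain, each had a mean rlog of at least 15 in both sets. Acta1 had a level per kilobase of 17.91, 17.78, 17.86, 17.79 and 17.82 in Gfp 1 to 5, against 18.34, 18.38, 18.28, 18.28 and 18.29 in Gfp 11 to 16. It ranked between 18 and 20 of 21604 protein-coding genes in Gfp 1-5 and 12 or 13 in Gfp 11-16. Myog had a level per kilobase of 14.78, 14.75, 14.93, 14.82 and 14.85 in Gfp 1 to 5, against 16.03, 16.03, 16.01, 16.11 and 16.08 in Gfp 11 to 16. Myog ranked between 263 and 295 in Gfp 1-5 and between 100 and 105 in Gfp 11-16. Raw levels of the sets are on separate scales. By rank, both genes stood lower in every Gfp 1-5 library than in every Gfp 11-16 library.

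Among all protein-coding genes, those with the highest level per kilobase belonged to mitochondria, translation and muscle. Averaged over the 10 libraries, mt-Co1, a cytochrome c oxidase subunit encoded by the mitochondrial genome, led at 20.37, followed by mt-Co2 at 19.39, the elongation factor gene Eef1a1 at 19.14, mt-Cytb at 19.02 and mt-Nd1 at 18.98. Mylpf, the fast skeletal regulatory light chain, came next at 18.80, ahead of mt-Atp6 at 18.75, the galectin gene Lgals1 at 18.74, mt-Co3 at 18.73 and the ribosomal protein gene Rpl41 at 18.46. In each of the 10 libraries mt-Co1 ranked 1 and mt-Co2 ranked 2, and Mylpf ranked between 6 and 8. The 10 leading genes of each set had 9 in common, or 90.0% of each list, the 100 leading genes 93 and the 1000 leading genes 936.

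Shares were taken of the linear level per kilobase summed over protein-coding genes whose mean rlog reached 3 in both sets. The 13 mitochondrial genes took 9.72% ± 0.255 in Gfp 1-5 and 8.54% ± 0.247 in Gfp 11-16 (SD, n = 5 each, here and in all values that follow with ±). The 81 ribosomal protein genes took 7.41% ± 0.186 in Gfp 1-5 and 7.35% ± 0.147 in Gfp 11-16. The 56 genes of the striated sarcomere took 4.31% ± 0.165 in Gfp 1-5 and 4.60% ± 0.039 in Gfp 11-16. The 100 leading genes took 29.1% ± 0.532 in Gfp 1-5 and 28.3% ± 0.389 in Gfp 11-16. Among noncoding genes on the lists, H19, an imprinted RNA of fetal and regenerating muscle, ranked 4 or 5 by rlog, which is not corrected for length, among all 55335 genes in each of the 10 libraries. Its level per kilobase was 18.04 ± 0.07 in Gfp 1-5 and 18.48 ± 0.05 in Gfp 11-16.

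The myosin heavy chains, the motors of the thick filament, were led by the embryonic gene. Myh3 had a level per kilobase of 15.70, 15.64, 15.83, 15.60 and 15.64 in Gfp 1 to 5, against 16.14, 16.09, 16.08, 16.05 and 16.06 in Gfp 11 to 16, and it made up 42.9% ± 0.32 in Gfp 1-5 and 51.2% ± 0.62 in Gfp 11-16 of the summed level of 10 striated muscle heavy chains. The adult fast gene Myh1 (type IIx) followed with 31.7% ± 0.55 in Gfp 1-5 and 30.6% ± 0.59 in Gfp 11-16. Myh4 (type IIb) had 17.1% ± 0.21 in Gfp 1-5 and 8.53% ± 0.31 in Gfp 11-16, and the neonatal gene Myh8 had 5.64% in Gfp 1-5 and 6.68% in Gfp 11-16. Myh2 (type IIa) was at 1.57% in Gfp 1-5 and 1.57% in Gfp 11-16, and the slow gene Myh7 at 0.564% in Gfp 1-5 and 0.86% in Gfp 11-16. Myh4 had a level per kilobase of 14.37, 14.30, 14.51, 14.26 and 14.36 in Gfp 1 to 5, against 13.58, 13.56, 13.49, 13.41 and 13.44 in Gfp 11 to 16. These raw values are on separate scales, and the rank-matched difference of Myh4 is given further on. The nonmuscle heavy chain Myh9 was near Myh1, at 15.08 ± 0.05 in Gfp 1-5 and 15.17 ± 0.03 in Gfp 11-16. Several of these genes are close copies: 21.5% of the 50-base windows of Myh1, 24.1% of Myh2, 19.1% of Myh4, 22.2% of Myh6, 22.6% of Myh7 and 21.4% of Myh8 also occurred in another member of the family, against 4.81% for Myh3, and how their reads were divided was not tested.

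**Figure D1:**
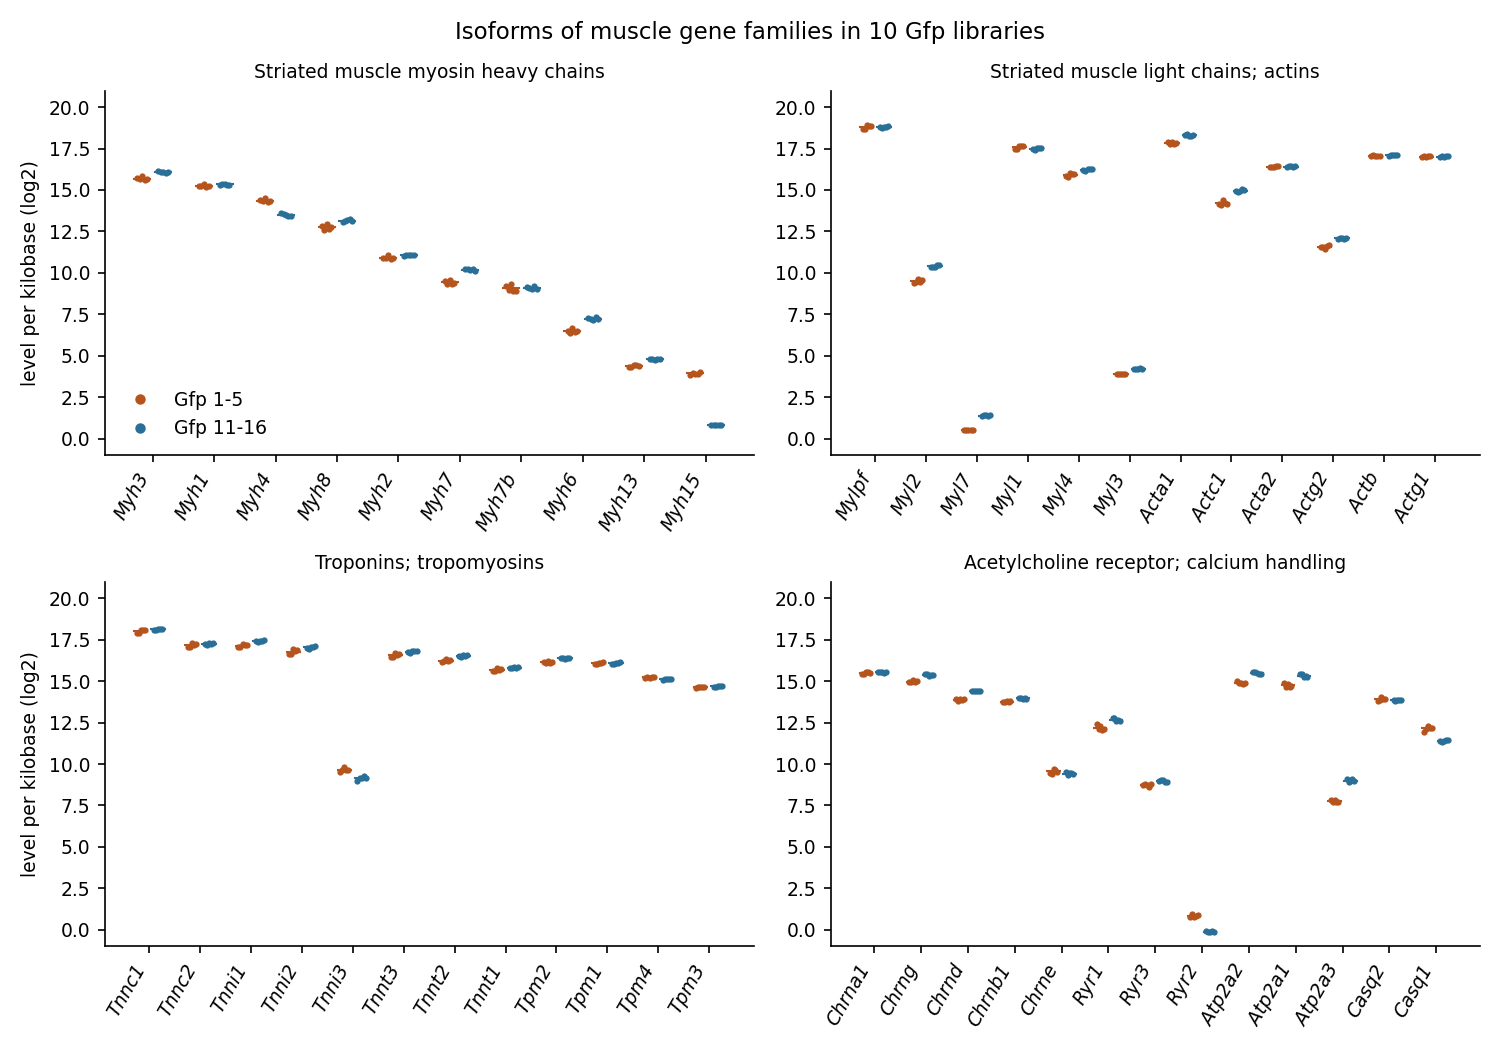
Level per kilobase (log2) of members of muscle gene families. Each point is 1 of 10 Gfp libraries, Gfp 1-5 on the left of each pair and Gfp 11-16 on the right, with a line at the mean of the 5. Myh3 leads the heavy chains at 15.68 in Gfp 1-5 and 16.08 in Gfp 11-16, and Mylpf leads the light chains at 18.80 and 18.81.

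Among light chains and actins, the skeletal members led. Mylpf held 99.8% in Gfp 1-5 and 99.7% in Gfp 11-16 of the striated regulatory light chain level and was above the slow and cardiac gene Myl2 by 635-fold in Gfp 1-5 and 342-fold in Gfp 11-16. Of the essential light chains, the fast gene Myl1 held 76.1% ± 0.41 in Gfp 1-5 and 70.8% ± 0.25 in Gfp 11-16, and Myl4, the embryonic and atrial gene, 23.9% ± 0.41 in Gfp 1-5 and 29.1% ± 0.25 in Gfp 11-16. With the length of all exons in place of the canonical transcript, Mylpf minus Myl2 was 10.84 in Gfp 1-5 and 9.94 in Gfp 11-16 on the log2 scale, and Myl1 minus Myl4 was 3.23 in Gfp 1-5 and 2.84 in Gfp 11-16. The slow gene Myl3 was low, at 3.90 in Gfp 1-5 and 4.22 in Gfp 11-16 per kilobase. Acta1 was above Actc1, cardiac alpha-actin, by 12.5-fold in Gfp 1-5 and 10.3-fold in Gfp 11-16. Acta2, named for smooth muscle, was also high, at 16.40 ± 0.05 in Gfp 1-5 and 16.41 ± 0.03 in Gfp 11-16, below the cytoplasmic actins Actb (17.06 in Gfp 1-5 and 17.09 in Gfp 11-16) and Actg1 (17.02 in Gfp 1-5 and 17.02 in Gfp 11-16).

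Slow and fast members of the troponin complex, the calcium switch of the thin filament, were expressed together. The calcium-binding subunit was led by the slow and cardiac gene Tnnc1, above the fast gene Tnnc2 by 1.79-fold in Gfp 1-5 and 1.83-fold in Gfp 11-16. Of the inhibitory subunits, Tnni1 (slow) was above Tnni2 (fast) by 1.28-fold in Gfp 1-5 and 1.31-fold in Gfp 11-16, an order that turned with the length of all exons of the gene in place of the canonical transcript. Of the tropomyosin-binding subunits, Tnnt3 (fast) held 42.9% in Gfp 1-5 and 42.3% in Gfp 11-16, Tnnt2 (cardiac) 34.0% in Gfp 1-5 and 36.0% in Gfp 11-16 and Tnnt1 (slow) 23.1% in Gfp 1-5 and 21.7% in Gfp 11-16. The order of Tnnt2 and Tnnt1 also turned with the length of all exons, where Tnnt3 minus Tnnt1 was 0.64 in Gfp 1-5 and 0.71 in Gfp 11-16 and Tnnt3 minus Tnnt2 1.30 in Gfp 1-5 and 1.20 in Gfp 11-16 on the log2 scale. Cardiac Tnni3 was the lowest troponin, at 9.66 ± 0.11 in Gfp 1-5 and 9.13 ± 0.09 in Gfp 11-16 per kilobase. None of the 8 troponin transcripts shared a 50-base window with another.

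In the sarcomere framework, the intermediate filament gene Des, desmin, stood at 17.13 ± 0.03 in Gfp 1-5 and 17.47 ± 0.02 in Gfp 11-16 per kilobase. Of the giant filament genes, nebulin (Neb) was at 12.92 ± 0.09 in Gfp 1-5 and 13.40 ± 0.05 in Gfp 11-16 and titin (Ttn) at 11.55 ± 0.09 in Gfp 1-5 and 12.05 ± 0.05 in Gfp 11-16. At the Z-disc, the fast gene Actn3 was above Actn2 by 16.1-fold in Gfp 1-5 and 9.58-fold in Gfp 11-16. Mybpc3, the cardiac myosin-binding protein C, was low, with a mean rlog of 4.16 in Gfp 1-5 and 3.55 in Gfp 11-16. The related gene Mybph stood at 15.29 in Gfp 1-5 and 15.90 in Gfp 11-16 per kilobase. Of the summed level per kilobase of 7 M-band and thick filament genes, Mybph held 52.05% in Gfp 1-5 and 55.85% in Gfp 11-16. Mybpc3 held 0.00562% in Gfp 1-5 and 0.00257% in Gfp 11-16.

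The voltage sensor and release channel were of the skeletal type. Cacna1s, the skeletal voltage sensor, was above its cardiac relative Cacna1c by 891-fold in Gfp 1-5 and 2090-fold in Gfp 11-16, and by 11.19 in Gfp 1-5 and 12.42 in Gfp 11-16 on the log2 scale with the length of all exons. Ryr1, the skeletal release channel, was above Ryr3 by 11.0-fold in Gfp 1-5 and 13.1-fold in Gfp 11-16, and cardiac Ryr2 stood at 0.84 ± 0.08 in Gfp 1-5 and -0.12 ± 0.03 in Gfp 11-16 per kilobase. The slow and cardiac calcium pump gene Atp2a2 was above the fast gene Atp2a1 by 1.10-fold in Gfp 1-5 and 1.12-fold in Gfp 11-16, again an order that turned with the length of all exons. Against the skeletal pattern, Casq2, the cardiac calsequestrin that stores calcium, was above the skeletal Casq1 by 3.44-fold in Gfp 1-5 and 5.44-fold in Gfp 11-16. With the length of all exons Casq1 minus Casq2 was -3.26 in Gfp 1-5 and -3.92 in Gfp 11-16 on the log2 scale. Of the micropeptides that restrain the pump, Mrln stood at 10.96 ± 0.11 in Gfp 1-5 and 10.94 ± 0.06 in Gfp 11-16 per kilobase, above Sln (6.23 in Gfp 1-5 and 6.04 in Gfp 11-16) and Pln (3.16 in Gfp 1-5 and 3.02 in Gfp 11-16).

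Among transcripts of acetylcholine receptor subunits, the fetal gamma subunit was far above the adult epsilon subunit, and the assembled receptor was not measured. Chrng had a level per kilobase of 14.97, 14.92, 15.07, 14.94 and 14.98 in Gfp 1 to 5, against 15.44, 15.43, 15.33, 15.38 and 15.37 in Gfp 11 to 16. Chrne, the adult epsilon subunit, had a level per kilobase of 9.49, 9.40, 9.73, 9.61 and 9.51 in Gfp 1 to 5, against 9.49, 9.32, 9.43, 9.45 and 9.39 in Gfp 11 to 16. Chrng was thus above Chrne by 43.0-fold in Gfp 1-5 and 62.8-fold in Gfp 11-16, and both promoters printed above held a CAGCTG. Chrna1, the alpha subunit, led the receptor genes at 15.49 ± 0.06 in Gfp 1-5 and 15.53 ± 0.01 in Gfp 11-16. Of the genes that gather receptors at the synapse, Rapsn was highest, at 12.45 ± 0.03 in Gfp 1-5 and 12.88 ± 0.01 in Gfp 11-16, and Musk, the agrin-responsive kinase, stood at 10.27 ± 0.03 in Gfp 1-5 and 10.59 ± 0.03 in Gfp 11-16.

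Energy enzymes mixed muscle and general isoforms. Eno3, muscle enolase, was above Eno1 by 1.86-fold in Gfp 1-5 and 1.72-fold in Gfp 11-16. Ldha, the muscle-type lactate dehydrogenase, was above Ldhb by 43.3-fold in Gfp 1-5 and 52.0-fold in Gfp 11-16. Pygm held 89.6% in Gfp 1-5 and 92.6% in Gfp 11-16 of the glycogen phosphorylase level. Other families were led by the general isoform. Pgam1 was above the muscle gene Pgam2 by 2.05-fold in Gfp 1-5 and 2.67-fold in Gfp 11-16. Slc2a1 was above Slc2a4, the insulin-responsive glucose transporter, by 10.0-fold in Gfp 1-5 and 8.51-fold in Gfp 11-16, and Cox6a1 was above the muscle subunit gene Cox6a2 by 6.39-fold in Gfp 1-5 and 3.27-fold in Gfp 11-16. The order of creatine kinases depended on transcript length, since the canonical Ckm transcript has 4058 bases and that of Ckb 1472. Per kilobase Ckb was above Ckm by 1.10-fold in Gfp 1-5 and 1.66-fold in Gfp 11-16, and without a correction for length the order turned in both sets.

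Regulators of differentiation were present beside precursor and cell cycle genes. Of the bHLH factors, Myog held 74.6% ± 0.8 in Gfp 1-5 and 79.4% ± 0.63 in Gfp 11-16 of the summed level, Myod1 17.6% in Gfp 1-5 and 16.1% in Gfp 11-16, Myf5 6.97% in Gfp 1-5 and 4.10% in Gfp 11-16, and Myf6, the factor of adult fibers, 0.762% in Gfp 1-5 and 0.443% in Gfp 11-16. The fusion gene Mymk, myomaker, stood at 15.57 ± 0.05 in Gfp 1-5 and 16.22 ± 0.05 in Gfp 11-16 per kilobase, and its partner Mymx, myomixer, at 11.91 ± 0.12 in Gfp 1-5 and 13.08 ± 0.06 in Gfp 11-16. Pax7, the satellite cell factor, had a mean rlog of 11.70 in Gfp 1-5 and 12.53 in Gfp 11-16. Of 5 satellite cell markers, Pax7 included, 3 reached a mean rlog of 9 in both sets and 1 was under 3 in both. All 17 cell cycle genes had a mean rlog of at least 9 in both sets. The proliferation marker Mki67 stood at 11.34 ± 0.09 in Gfp 1-5 and 11.13 ± 0.06 in Gfp 11-16 per kilobase, and Cdkn1a, the inhibitor that marks exit from the cycle, at 16.71 ± 0.02 in Gfp 1-5 and 17.09 ± 0.03 in Gfp 11-16. In bulk RNA, fewer cells with a transcript and less of it per cell cannot be told apart.

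Markers of other cell types were mostly low, with exceptions. Of 8 macrophage and leukocyte markers none had a mean rlog of at least 9 in both sets, and the list's summed level per kilobase lay between 9.40 and 9.48 in Gfp 1-5 and between 9.27 and 9.32 in Gfp 11-16. Cd14 had a mean rlog of 9.11 in Gfp 1-5 and 8.78 in Gfp 11-16, Itgam of 8.41 in Gfp 1-5 and 8.31 in Gfp 11-16 and Cd68 of 8.16 in Gfp 1-5 and 8.21 in Gfp 11-16. The defining leukocyte gene Ptprc stood at 3.35 in Gfp 1-5 and 2.67 in Gfp 11-16, Adgre1 at 0.00 in Gfp 1-5 and -1.87 in Gfp 11-16 and Tyrobp at 0.00 in Gfp 1-5 and -1.58 in Gfp 11-16. An rlog of 0 may stand for no reads, as given further on, and is not read as a higher level than a value below 0. Of 5 adipocyte markers 4 were under 3 in both sets, and none of the 6 endothelial, 6 neuron and glia, and 6 epithelium and liver markers reached 9 in both. Genes of the fibro-adipogenic and smooth muscle lists were clearly expressed, among them Ly6a with a mean rlog of 15.39 in Gfp 1-5 and 15.56 in Gfp 11-16, Dcn with 13.64 in Gfp 1-5 and 13.79 in Gfp 11-16 and Tagln with 13.22 in Gfp 1-5 and 13.75 in Gfp 11-16, whereas Myh11, the defining myosin of smooth muscle, stood at 5.48 in Gfp 1-5 and 5.66 in Gfp 11-16. Of 7 cardiomyocyte markers 2 reached 9 in both sets, Myh6 and the transcription factor gene Gata4, which had a mean rlog of 11.38 in Gfp 1-5 and 11.18 in Gfp 11-16. Of 5 osteogenic markers 1 did, the bone factor gene Runx2, with 11.90 in Gfp 1-5 and 12.06 in Gfp 11-16. The part of other cells in these values was not tested.

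**Figure D2:**
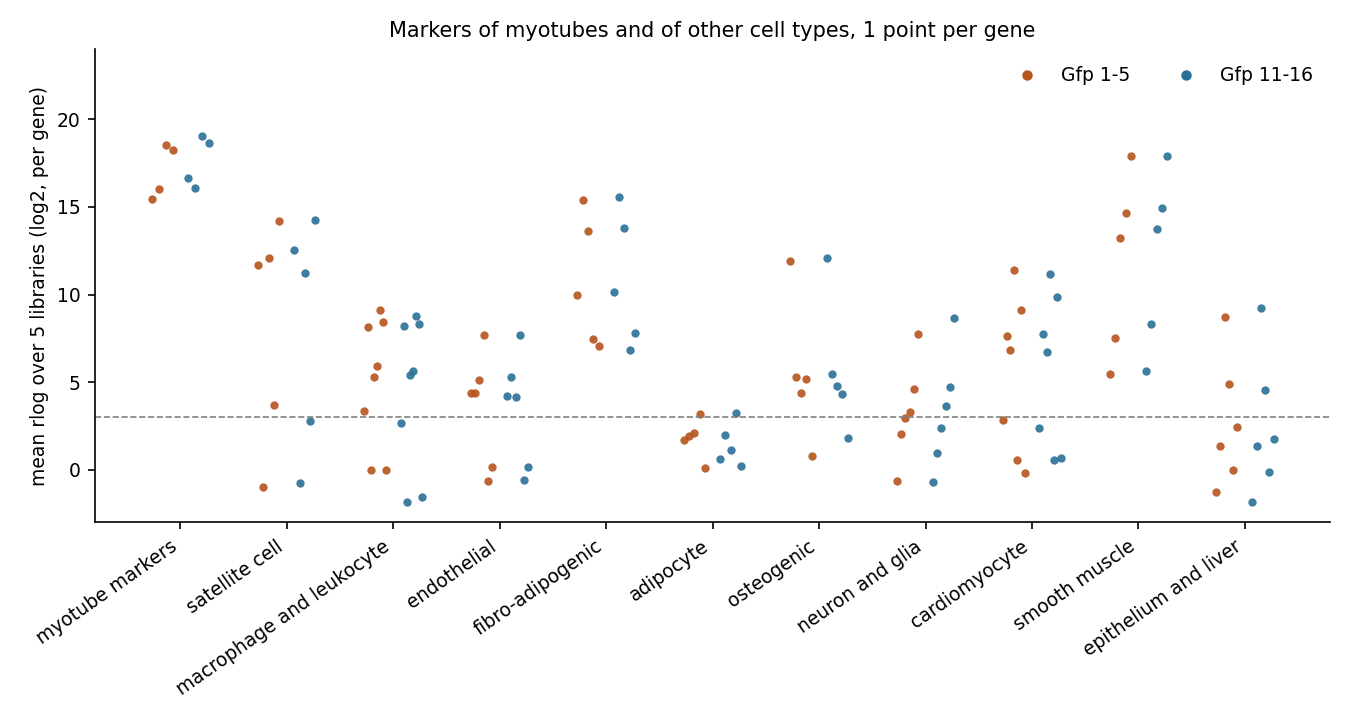
Mean rlog (log2, per gene, not per length) of 4 myotube markers and of marker genes of other cell types. Each point is 1 gene, Gfp 1-5 on the left and Gfp 11-16 on the right of each list, and the dashed line marks an rlog of 3. The 4 myotube markers all lie above 15, and 4 of 5 adipocyte markers lie below the line.

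Among the low values, 15914 of 55335 genes were listed at 0 in all 5 libraries of Gfp 1-5 and 16235 in those of Gfp 11-16. Of these, 13523 were at 0 in both sets. A mean rlog below 0 was held by 11431 genes in Gfp 1-5 and 11319 in Gfp 11-16. A listed 0 is therefore not the lowest number. It may still stand for no reads, which was not tested without counts, and it is not read as a higher level than a value below 0. Among 21604 protein-coding genes, 1582 were at 0 in Gfp 1-5, 1669 in Gfp 11-16 and 1107 in both. Genes at 0 in Gfp 1-5 only reached a mean rlog of at most 3.43 in Gfp 11-16, and those at 0 in Gfp 11-16 only reached at most 4.66 in Gfp 1-5. A mean rlog of at least 3 in both sets was reached by 20155 genes, 14863 of them protein-coding, and at least 9 by 11011 protein-coding genes in Gfp 1-5 and 11046 in Gfp 11-16. None of the 375 listed genes was at 0 in all 10 libraries.

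The order of genes was nearly the same in every library, and closer within a set than between the sets. Over the 20155 genes, Spearman's rank correlation across genes had a median of 0.9997 within Gfp 1-5 (10 pairs), 0.9998 within Gfp 11-16 (10 pairs) and 0.9945 between them (25 pairs). The lowest value within Gfp 1-5, 0.9996, was above the highest between the sets, 0.9949. These are descriptions: genes are not independent, and the transformation draws libraries of 1 experiment together. The median gene moved by 1.20 percentile points of rank between the sets, against a median range of 0.963 points among the libraries of a set. The median move was 1.86 points among the 5039 genes with the lowest levels and 0.85 points among the 5039 with the highest.

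Within a set, the interferon-stimulated genes, which respond to viral nucleic acid through type I interferon, spread more than the muscle lists. Their median SD between libraries was 0.18 in Gfp 1-5 and 0.12 in Gfp 11-16, against 0.04 in Gfp 1-5 and 0.04 in Gfp 11-16 for all genes tested. Averaged over the 18 genes, libraries deviated from their set's mean by 0.03, -0.04, -0.25, 0.16 and 0.11 in Gfp 1 to 5, and by 0.19, -0.09, -0.06, 0.01 and -0.04 in Gfp 11 to 16. Gfp 3 was thus the lowest of its set in these genes and Gfp 11 the highest of its own. Gfp 3 was also the highest of its set in the 29 sarcomere framework genes, at 0.08 above the set's mean, and in the 8 troponins, at 0.12 above it. The median SD of the troponins was 0.10 in Gfp 1-5 and 0.05 in Gfp 11-16.

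To ask which genes stood higher or lower in 1 set of controls than in the other, the 10 libraries were brought to a common distribution by rank, since raw rlog values of the sets are on separate scales, and 20155 genes were tested with limma. Between Gfp 1-5 and Gfp 11-16, 261 genes (1.29% of those tested) were higher and 330 (1.64%) lower where the adjusted p was 0.05 or less and the sets were at least 1 log2 unit apart. At a difference of at least 0.5, 1145 (5.68%) were higher and 1234 (6.12%) lower. At any size, 15514 of the 20155 genes had an adjusted p of 0.05 or less (limma). Of the 591 genes at the larger size, all had sets that did not overlap. At a gap of 1 this says little, since the median SD within each set was 0.04. Of the 591, 528 were protein-coding. Of the 591, 475 differed by less than 0.25 between Per and Gfp libraries in both experiments, as did 18684 of all 20155 genes tested. Genes with a larger Per difference were thus more frequent among the 591. All 591 differed in the same direction between the Per2 and Per1 libraries of these experiments, 523 of them by at least 1. The Per libraries share an experiment and a transformation with the Gfp libraries. The same direction was therefore nearly bound to follow and is no replication, and its share over all genes tested is not given. The p-values rest on a spread that the transformation had narrowed and are therefore too small.

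The largest differences among genes with little Per effect were in genes whose mean rlog was at most 6.41 in the lower set. Higher in Gfp 1-5 were Gria4, an AMPA receptor subunit, by 3.92, Itgbl1 by 3.35, Aldh1a1, a retinaldehyde dehydrogenase, by 3.29, Grik2, a kainate receptor subunit, by 3.21, Folh1 by 3.00, Tnr, tenascin R, by 2.75, Pip5k1b by 2.45, Cacnb2 by 2.43, Penk, proenkephalin, by 2.36 and Twist1, an antagonist of myogenic bHLH factors, by 2.32. Gria4 had an rlog of 8.92, 9.08, 8.86, 9.07 and 9.01 in Gfp 1 to 5, against 5.08, 5.07, 5.09, 5.10 and 5.06 in Gfp 11 to 16 (limma, adjusted p = 4.92e-18). Lower in Gfp 1-5 were Grik3, another kainate receptor subunit, at -4.94, the chemokine gene Cxcl14 at -4.02, Myo16 at -3.89, Dcx, doublecortin, at -3.16, Wscd1 at -2.82, Gjb2, a connexin, at -2.63, Tceal6 at -2.59, the T-type calcium channel gene Cacna1h at -2.57, Tspan18 at -2.53 and Kcnmb1 at -2.51. Grik3 had an rlog of 4.25, 4.20, 4.21, 4.21 and 4.24 in Gfp 1 to 5, against 9.19, 9.06, 9.16, 9.33 and 9.20 in Gfp 11 to 16 (limma, adjusted p = 6.00e-19). In each of these 20 genes the sets did not overlap, which the naming rule required.

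**Figure D3:**
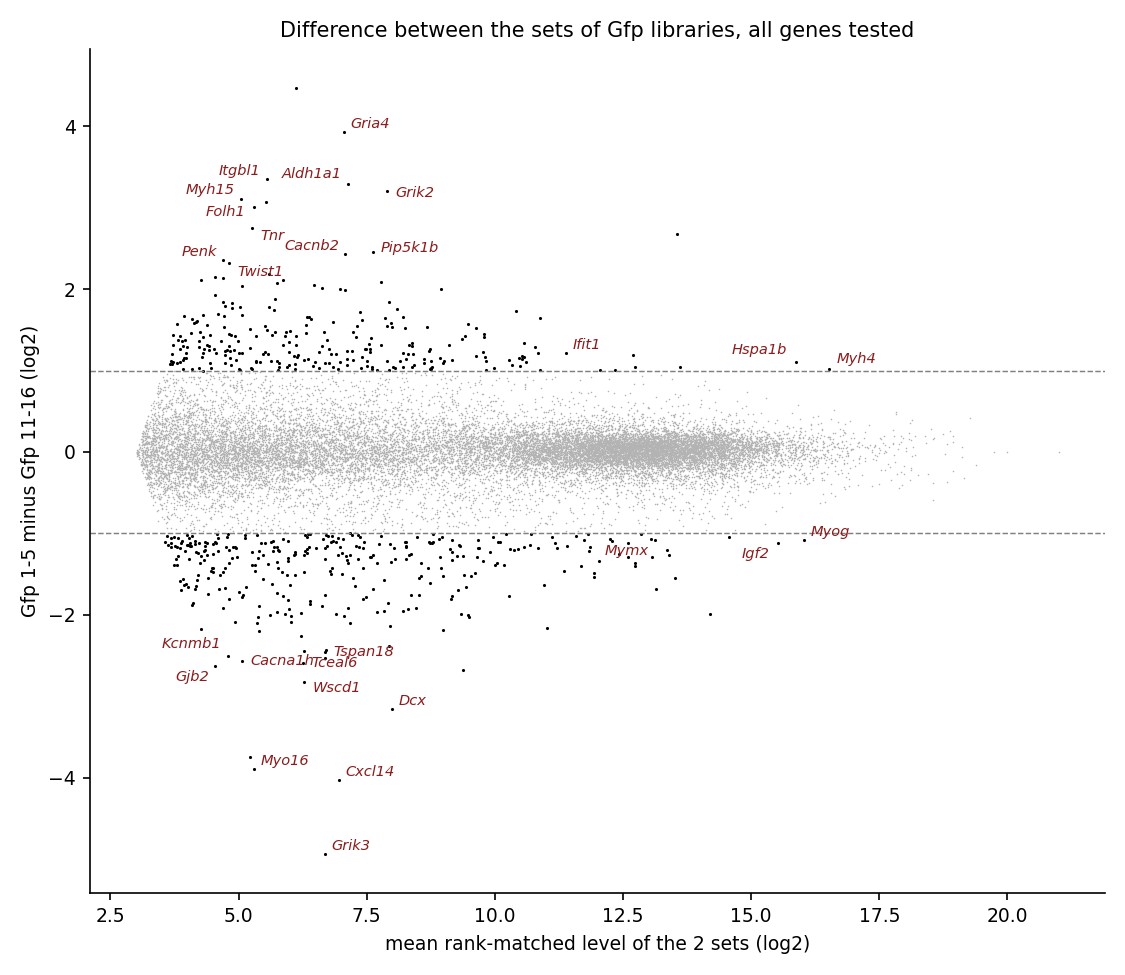
Difference between Gfp 1-5 and Gfp 11-16 (log2, rank-matched level) against the mean level of the 2 sets, 1 point per gene for 20155 genes. Black points are the 261 genes higher and 330 lower by at least 1 (dashed lines) with an adjusted p up to 0.05. Labels mark the 20 genes named by rule and some listed genes. Gria4 lies at 3.92 and Grik3 at -4.94, while most genes lie near 0.

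Several regulators of differentiation were lower in Gfp 1-5. Of 20 myogenic regulators, 1 was higher and 7 were lower at a difference of at least 0.5 (5.68% and 6.12% of all genes), and the list's median was -0.37, against 0.01 over all genes tested. Myog differed by -1.08 (SE 0.031, limma, adjusted p = 2.26e-13) and Mymx by -1.08 (SE 0.053, limma, adjusted p = 9.86e-11), with no overlap between the sets. Mymx differed between Per and Gfp libraries by -0.28 in the Per1 and -0.02 in the Per2 experiment. Myod1 differed by -0.88, Mymk by -0.52 and Pax7 by -0.75, and Twist1 was the member that was higher. Of the 3 satellite cell markers tested, Pax7 was the 1 lower at 0.5, and 1 other was higher, by 0.88. That other marker differed by at least 0.25 between Per and Gfp libraries in at least 1 experiment. Twist1 had a mean rlog of only 5.96 in Gfp 1-5 and 3.64 in Gfp 11-16. Of the 6 antagonists of differentiation on the list, Twist1 was the 1 above 0, and the other 5 lay below 0. Their median was -0.34, near that of the whole list. The imprinted growth factor gene Igf2, which promotes myoblast differentiation, had a level per kilobase of 13.14, 12.84, 13.07, 12.90 and 13.06 in Gfp 1 to 5, against 14.28, 14.27, 14.20, 14.29 and 14.23 in Gfp 11 to 16, a rank-matched difference of -1.12. Of the other imprinted genes, Cdkn1c was lower by -1.07 and Mest by -0.95, while Grb10 was higher by 0.69. Cdkn1c differed between Per and Gfp libraries by 0.27 in the Per1 and 0.24 in the Per2 experiment, and Mest by 0.26 in the Per1 and 0.34 in the Per2 experiment. The 17 cell cycle genes had a median of 0.25, and 14 of them lay above 0, against 10571 of all 20155 genes tested. None of the 17 passed at a difference of 0.5 (5.68% and 6.12% of all genes).

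The sarcomere, calcium handling and energy lists had members that differed. Their counts at 0.5 are to be read against the 5.68% of all genes that were higher and 6.12% that were lower. Of 14 myosin heavy chains 2 were higher and 2 lower. Myh4 was higher in Gfp 1-5 by 1.02 (SE 0.045, limma, adjusted p = 3.17e-11) and Myh15, at low levels, by 3.11, while the slow and cardiac genes Myh6 and Myh7 differed by -0.69 and -0.67. Myh4 differed between Per and Gfp libraries by -0.37 in the Per1 and -0.10 in the Per2 experiment, and Myh15 by 0.03 in the Per1 and -0.27 in the Per2 experiment. Of 29 sarcomere framework genes 1 was higher, Mybpc3, and 3 were lower, Myoz3, Actn2 and Csrp3, shares near those of all genes. Of 26 calcium handling genes 4 were higher, among them Casq1 by 0.83 and Pvalb by 0.88, and 4 were lower, among them Cacna1s by -0.81. Casq1 differed between Per and Gfp libraries by -0.48 in the Per1 and -0.23 in the Per2 experiment, and Cacna1s by -0.30 in the Per1 and -0.17 in the Per2 experiment. Of 33 energy enzyme genes tested none was higher and 8 were lower, among them Cox6a2 by -0.89, Slc2a4 by -0.70 and Pygl by -1.74. At any size, 22 of the 33 lay below 0, against 9584 of all 20155 genes tested, and the list's median was -0.21. Cox6a2 differed between Per and Gfp libraries by -0.18 in the Per1 and -0.31 in the Per2 experiment. None of the 13 mitochondrial genes reached 0.5, with a median of 0.23.

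All 18 interferon-stimulated genes lay above 0, against 10571 of all 20155 genes tested. At a difference of at least 0.5, 12 of the 18 were higher in Gfp 1-5 (against 5.68% of all genes) and none was lower, with a median of 0.67. Ifi44 had a level per kilobase of 7.90, 7.83, 7.48, 8.12 and 7.95 in Gfp 1 to 5, against 6.65, 6.17, 6.36, 6.33 and 6.30 in Gfp 11 to 16, a rank-matched difference of 1.54 (SE 0.104, limma, adjusted p = 4.46e-09). Ifit1, which binds viral RNA, differed by 1.22 and Ifit3 by 1.16. Bst2, the highest of the list, stood at 12.27 ± 0.19 in Gfp 1-5 and 11.78 ± 0.12 in Gfp 11-16 per kilobase. None of the 12 differed by less than 0.25 between Per and Gfp libraries in both experiments. Ifi44 was higher in Per than in Gfp libraries by 0.70 in the Per1 and 0.68 in the Per2 experiment, Ifit1 by 1.13 in the Per1 and 0.70 in the Per2 experiment and Ifit3 by 0.93 in the Per1 and 0.74 in the Per2 experiment, and how far this drew the Gfp values was not tested.

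Among other lists, the progesterone receptor gene Pgr was lower in Gfp 1-5, with a mean rlog of 3.31 in Gfp 1-5 and 4.98 in Gfp 11-16. The inducible heat shock genes Hspa1b and Hspa1a were higher by 1.10 and 1.04, but 62.3% of the 50-base windows of Hspa1b and 58.8% of those of Hspa1a are shared. Hspa1b differed between Per and Gfp libraries by -1.22 in the Per1 and -1.61 in the Per2 experiment, and Hspa1a by -0.67 in the Per1 and -1.51 in the Per2 experiment. Per2 was higher in Gfp 1-5 by 2.67 and Per1 lower by -1.99. These are the overexpressed genes of the 2 experiments, with Per2 4.89 above Gfp in the Per2 libraries and Per1 4.31 above Gfp in the Per1 libraries. How far this drew the Gfp values of both genes was not tested. Of 6 adenovirus entry genes none passed at a difference of 0.5, against 5.68% higher and 6.12% lower of all genes. With 6 genes, a count of none is near those shares and is not a result about virus entry.

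**Figure D4:**
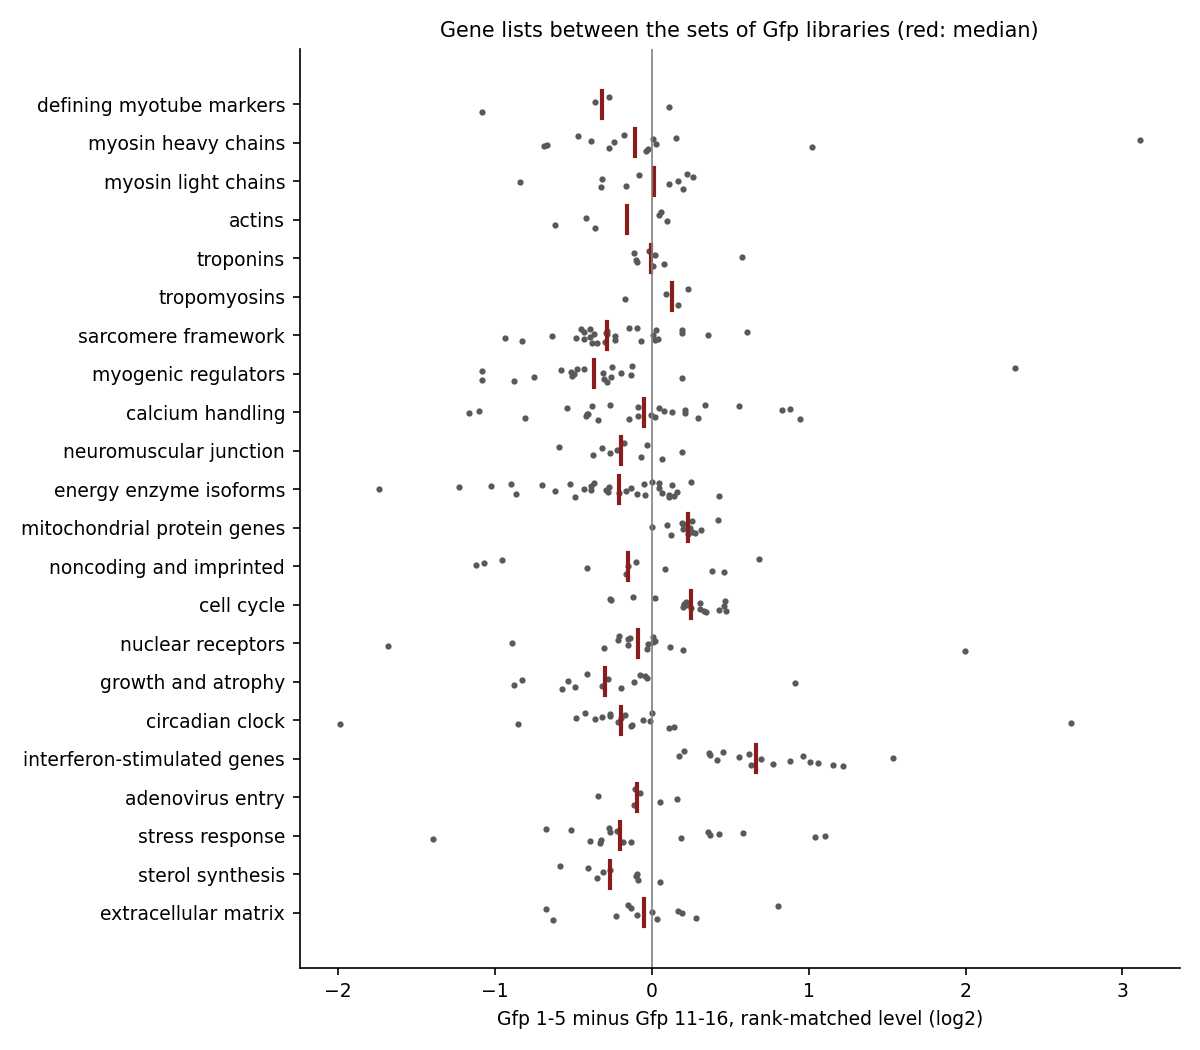
Difference between Gfp 1-5 and Gfp 11-16 (log2, rank-matched level) for the tested genes of each list, 1 point per gene, with a red line at the median of the list. The median is 0.67 for the interferon-stimulated genes and -0.37 for the myogenic regulators.

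Isoform balance, the level per kilobase of 1 member minus that of its partner in the same library, does not depend on a shift common to all genes of a set. In all 28 pairs the same gene led in both sets. Under an exact permutation test (two-sided, smallest p 0.00794) with Benjamini-Hochberg adjustment over the 28 pairs, 23 differed between the sets at an adjusted p of at most 0.05. Only 8 of these differed by at least 0.5, and the median size over the 28 pairs was 0.26. The widest was Cacna1s/Cacna1c, which differed by -1.23. It was followed by Cox6a2/Cox6a1 by -0.97, Mylpf/Myl2 by 0.89, Myf6/Myog by 0.87 and Actn3/Actn2 by 0.74. Then came Casq1/Casq2 by 0.66, Ckm/Ckb by 0.60 and Chrne/Chrng by 0.55. Cacna1s, Cox6a2 and Casq1 carry the Per differences given above. Myl2 also differed between Per and Gfp libraries by at least the limit stated at the outset, in at least 1 experiment. In each of these 8 pairs the sets did not overlap (exact permutation p = 0.00794, adjusted p = 0.0117). This does not single them out, since the sets overlapped in only 9 of all 28 pairs. Tnnt3/Tnnt2, with a difference of 0.11, and Eno3/Eno1, with 0.12, reached the same p in that test. The pairs that did not pass were Myh3/Myh8, Tnnc2/Tnnc1, Tnni2/Tnni1, Atp2a1/Atp2a2 and Sln/Pln, with differences of -0.01, 0.04, 0.04, 0.02 and 0.05.

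**Figure D5:**
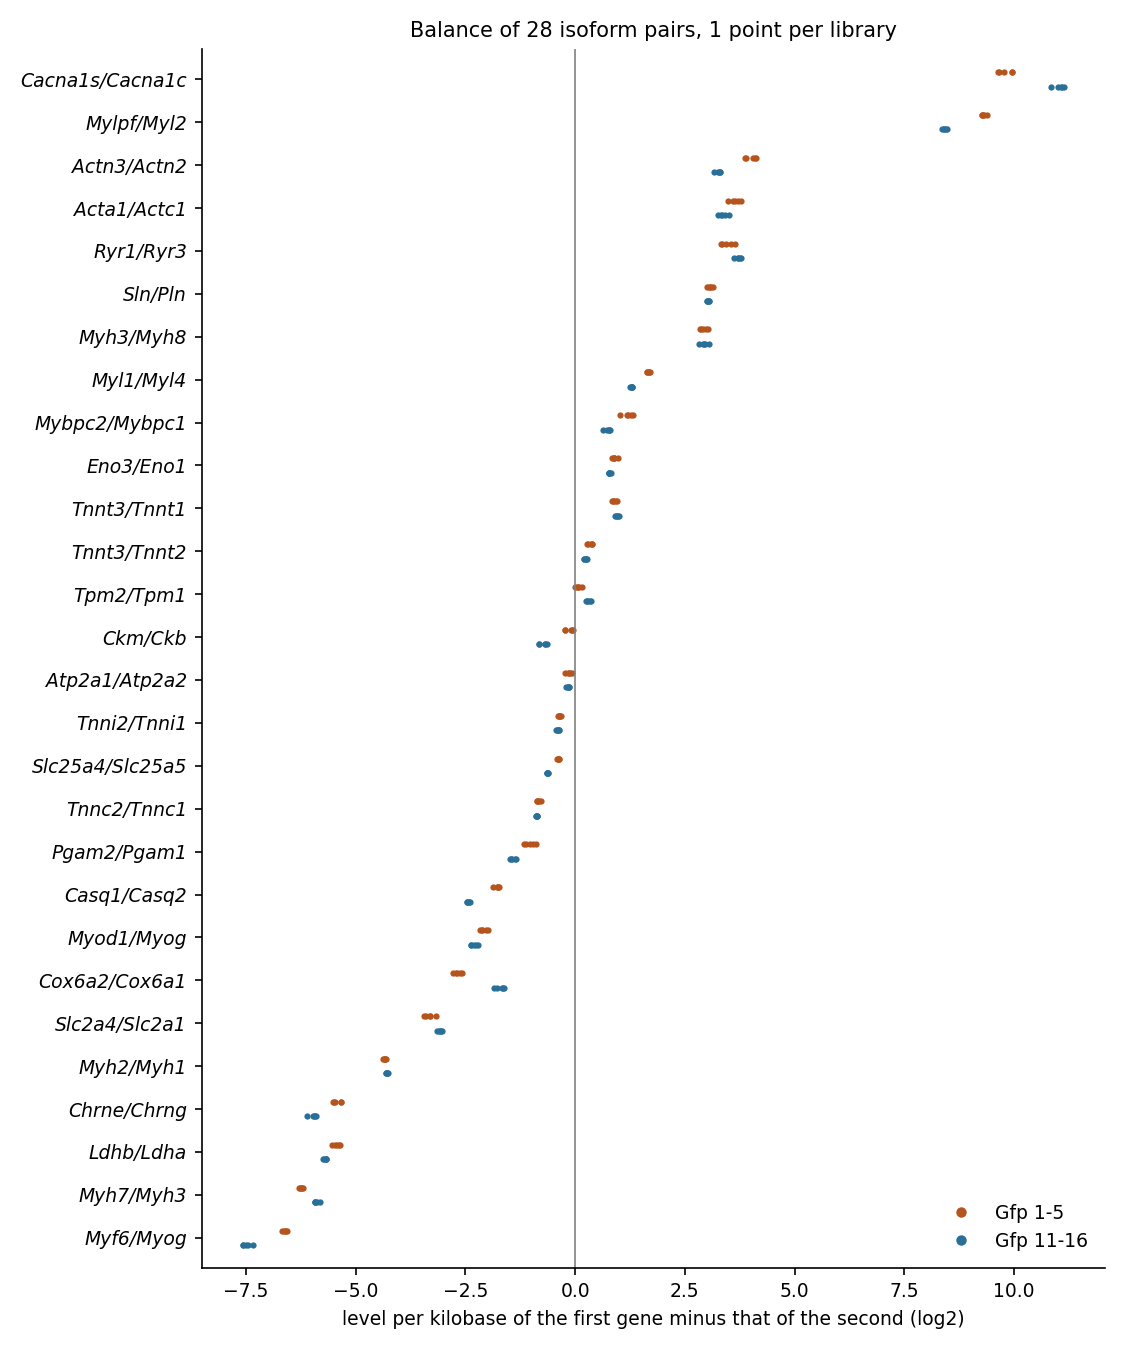
Balance of 28 isoform pairs (log2, level per kilobase of the first gene minus that of the second), 1 point per library, with Gfp 1-5 above Gfp 11-16 in each pair. The same gene leads in both sets in all 28 pairs, and the widest gap between the sets is -1.23, for Cacna1s/Cacna1c.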

How the data were processed

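The deposited values are DESeq2 regularized log2 (rlog) values of 55335 genes in 20 libraries, which the authors made from reads aligned with STAR and counted per gene. The genome is GRCm39 in the study's methods and mm10 in the submitters' processing notes, and versions are not given in the sources used here. Library depth is unknown. Symbols, lengths of Ensembl canonical transcripts and gene types came from GENCODE M39, which held 51654 of the IDs.

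The members, gene lists, isoform pairs and thresholds were chosen with earlier results of these data known. Rank-matched values (each rank replaced by its mean over the 10 Gfp libraries) of 20155 genes whose mean rlog reached 3 in both sets were tested with limma 3.58.1 in R 4.3.3 (two-sided, prior variance fitted as a trend on level, p-values adjusted by Benjamini-Hochberg) and checked on simulated data. Named were listed genes, the 10 highest protein-coding genes per kilobase, and the 10 largest differences each way whose libraries did not overlap and whose Per minus Gfp difference was under 0.25, without model-number names. Isoform pairs had an exact permutation test. The cultures of a set lie within 1 experimental replicate, so p-values measure only the spread between them, which may be technical. Alternatives were other scalings, filters, thresholds and lengths, and leaving out each library. Some genes of the lists are not reported here.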

Additional observations from a re-analysis of the deposited data

Results flagged for a closer look

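Each set has 5 libraries, and 176 sets of 5 values were screened for a library far from the others by Dixon's ratio (critical value 0.71). The screen marked 8, and chance marks about 1 in 20. For the balance of Eno3 against Eno1, 1 library of Gfp 11-16 stood at 0.81, with the nearest at 0.77. For the share of striated sarcomere genes, 1 library of Gfp 11-16 stood at 4.54%, with the nearest at 4.61%. The mean deviation of the energy enzymes in Gfp 11-16 was -0.044 in Gfp 13, that of the growth and atrophy genes in Gfp 1-5 was -0.043 in Gfp 4, and that of the matrix genes in Gfp 11-16 was -0.052 in Gfp 15. The rlog of Aldh1a1 in Gfp 11-16 was 5.56 in 1 library, with the nearest at 5.49. The rlog of Pip5k1b was 8.86 in 1 library of Gfp 1-5, with the nearest at 8.81, and 6.43 in 1 library of Gfp 11-16, with the nearest at 6.39.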

How the results depend on the processing

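The count of genes that differ between the sets depended on the filter and the threshold. Without a filter on low values 8315 genes passed (4146 higher and 4169 lower in Gfp 1-5), with a mean rlog of at least 5 in both sets 360 (153 and 207), with a threshold of 0.5 on the log2 scale 2379 (1145 and 1234) and with a threshold of 2 55 (24 and 31). Leaving out 1 library at a time gave 581 to 599 genes, 253 to 269 higher and 327 to 338 lower, and 22 to 24 isoform balances. The median rank correlation between the sets was 0.9458 over genes not at 0 in both sets and 0.9948 per kilobase. The former, like the count without a filter, takes in 2391 genes at 0 in Gfp 1-5 only and 2712 at 0 in Gfp 11-16 only. Those listed zeros rank above values below 0. With the length of all exons, Tnni2 stood above Tnni1 by 0.17 in Gfp 1-5 and 0.13 in Gfp 11-16, and Atp2a1 above Atp2a2 by 0.62 and 0.59. With no correction for length, Ckm stood above Ckb by 1.33 in Gfp 1-5 and 0.73 in Gfp 11-16, and Slc25a4 above Slc25a5 by 0.16 in Gfp 1-5. Those reversals follow from the lengths alone. Over the balances of both sets and all alternatives, 87 values moved by more than the spread between libraries, 7 turned and 74 did neither. All 307 recomputed differences of named genes kept their direction and their call. No paired analysis was possible because the 2 sets of Gfp libraries share no library number. Depth is unknown, so no limit of detection can be given for genes listed at 0.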

Other observations

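Some genes stood above an rlog of 3 in 1 set only and so were not tested. They were chosen after their values were seen. Fgf10, a fibroblast growth factor of mesenchyme, had a mean rlog of 7.57 in Gfp 1-5 and 2.99 in Gfp 11-16, and Prkcb, a protein kinase C, 5.02 and 1.76. Apcs, serum amyloid P, had 2.75 in Gfp 1-5 and 6.08 in Gfp 11-16, and Aire, the autoimmune regulator, 2.03 and 5.26.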
